A study of Mus musculus with 8 samples.

Results

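Dimethylation and trimethylation of lysine 9 on histone H3 (H3K9) mark closed chromatin and are a known barrier to reprogramming. The 10 genes described here encode enzymes that write or remove this mark, a relative of the erasers (Kdm2b) and a co-repressor that brings a writer to DNA (Trim28). They are the methyltransferase genes Setdb1, Suv39h2, Ehmt1 and Ehmt2, the co-repressor gene Trim28, and the demethylase genes Kdm2b, Kdm3a, Kdm4a, Kdm4b and Kdm4c. The genes were taken from a list of this pathway, and are 10 of the 21853 protein-coding genes whose start sites were examined. For each gene, the open chromatin peaks that overlapped the gene body or the 50 kb to each side of it (its window) were collected, which gave 105 of the 101701 open regions found in the series.

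SETDB1 trimethylates H3K9, mainly at retroelements, where TRIM28 (also called KAP1) brings it to DNA bound by zinc finger proteins. SUV39H2 trimethylates H3K9 in constitutive heterochromatin, and EHMT1 (GLP) and EHMT2 (G9a) form the heterodimer that lays down most dimethylation in open parts of the genome. KDM3A removes mono- and dimethylation of H3K9, and KDM4A, KDM4B and KDM4C remove its trimethylation as well as methylation of lysine 36 (H3K36). KDM2B acts on H3K36 and binds unmethylated CpG islands, to which it brings a variant Polycomb complex. The 5 demethylases are Jumonji enzymes that need iron and 2-oxoglutarate, and vitamin C raises their activity.

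Open chromatin was mapped by ATAC-seq, an assay that uses a transposase to cut and tag accessible DNA, in 8 mouse libraries, 2 for each of 4 groups. Embryonic fibroblasts (MEFs) and embryonic stem cells (ESCs) were the ends of the series. Between them were MEFs infected with retroviruses for OCT4, SOX2, KLF4 and c-MYC (OSKM) and taken on day 5 or day 10. These OSKM cells were wildtype for Jmjd3, were given the FLAG vector as a control, and grew in ESC medium to which 50 µg/ml vitamin C was added. MEFs and infected cells were of the OG2 strain, which carries an Oct4-GFP reporter. The labels give OG2 for 1 ESC library and C57Bl6J for the other, and they place ESCs on feeder cells where the methods describe gelatin and 2i/L medium, so a difference between ESCs and the other groups cannot be told apart from strain and medium. The labels give vitamin C for the infected cells alone. A difference between MEFs and infected cells thus cannot be told apart from infection, vitamin C and medium. The infected cells are a mixture of cells at different stages. Each group has 1 deposited peak list that joins both libraries. No spread between replicates can therefore be had and no test between groups was possible, so differences below are descriptions of 4 lists. The MEF list had 56514 peaks, the day 5 list 36219, the day 10 list 35226 and the ESC list 48486, and because no read counts come with them, a shorter list may only mean shallower libraries. As a check of the labels, 7 of 7 fibroblast marker genes had a peak over a coding start site in the MEF list, 4 in the day 5 list, 3 in the day 10 list and 1 in the ESC list, and 3, 1, 2 and 5 of 8 markers of ESCs did. Dppa5a and Lin28a, both markers of ESCs, had none in any list. Tdgf1, also a marker of ESCs, went the other way, with a peak in MEFs and on day 10 and none in ESCs. Esrrb and Tfcp2l1 had a peak in MEFs as well as in ESCs.

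The start sites of the 10 genes were open from MEFs onwards. A peak lay over at least 1 start site of a coding transcript in 10 of 10 genes in MEFs (58.6% of all protein-coding genes), in 10 on day 5 (50.6% of all), in 10 on day 10 (54.7% of all) and in 9 in ESCs (53.8% of all). Such a peak was present in all 4 lists for 9 of the 10 genes, as for 45.2% of all protein-coding genes. The exception was Ehmt2, which had a start-site peak in MEFs and on both days and none in ESCs, a pattern found in 3.49% of all protein-coding genes (763 genes). With the higher-scoring 50% of each list the start-site peaks of Setdb1 and Ehmt2 were lost on both days, and those of Setdb1 and Ehmt1 in ESCs. Accessibility of a start site is not a measure of how much RNA or enzyme a cell makes.

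Fold enrichment, the ratio of a peak over background that the authors' caller reported, gives the height of each peak on the scale of its own list. Over all protein-coding genes with a start-site peak the median fold enrichment was 3.92 in MEFs, 3.97 on day 5, 3.7 on day 10 and 3.88 in ESCs. The 10 genes ranged from 2.96 to 5.24 in MEFs, 2.73 to 6.6 on day 5, 2.16 to 5.07 on day 10 and 3.05 to 5.8 in ESCs, with medians of 4.34, 4.28, 3.87 and 4.38. The genes thus lay on both sides of the median start site in each list.

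**Figure D1:**
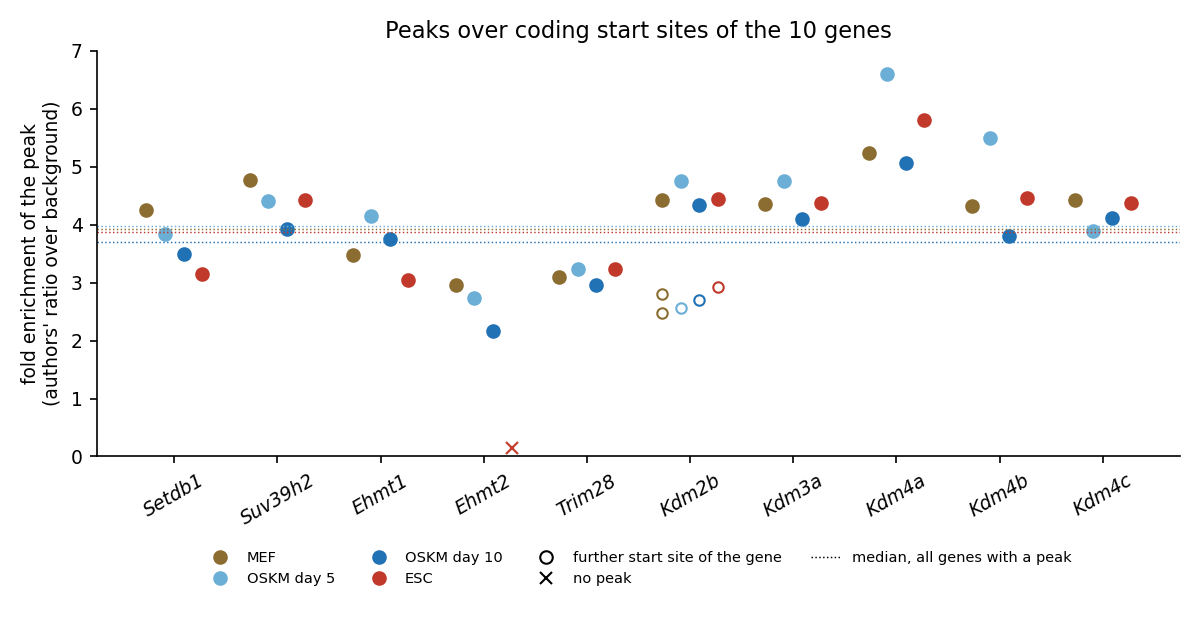
Fold enrichment (vertical axis, ratio over background, 1 value per peak list) of the peak over a coding start site of each gene, with a filled circle for the highest such peak, open circles for peaks over further start sites of Kdm2b, a cross for no peak, and dotted lines at the median of all protein-coding genes with a peak in that list. Kdm4a stands highest in all 4 lists (5.07 to 6.6), and Ehmt2 is the gene with no peak in ESCs.

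Among the writers, Suv39h2 (chr2:3455815-3475031, minus strand, mm10) had a steady start-site peak with a fold enrichment of 4.77 in MEFs, 4.41 on day 5, 3.93 on day 10 and 4.42 in ESCs. Its score lay between the 82.2nd and the 93.9th percentile of the peaks in its list. Setdb1 (chr3:95323525-95357202, minus strand) had 4.25, 3.84, 3.5 and 3.15 in the same order. The Setdb1 peak was 633 bp wide in MEFs and 273 bp wide in ESCs, and its score lay at the 69.6th percentile of the MEF list and the 20.2nd of the ESC list. In ESCs it was the lowest by score of the 9 genes with a peak, and it was lost there when each list was cut to the 35226 highest-scoring peaks, the length of the shortest list.

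Ehmt1 (chr2:24789928-24919614, minus strand) had 3.47 in MEFs, 4.15 on day 5, 3.76 on day 10 and 3.05 in ESCs, where its score lay at the 35.7th percentile. Its partner Ehmt2 (chr17:34898469-34914052, plus strand) had 2.96, 2.73 and 2.16 in MEFs, on day 5 and on day 10. Those Ehmt2 peaks were 2355, 1200 and 1645 bp wide and their scores lay at the 66.8th, 31.4th and 27.9th percentiles, so 2 of the 3 were among the weaker peaks of their lists. No ESC peak came within 1 kb of any coding start site of Ehmt2. The Ehmt2 region also covers a start of the neighbouring gene C2, and ATAC-seq does not say to which gene an open region belongs. Both genes of the heterodimer therefore had their lowest value or no peak in ESCs, which in 4 lists without replicates cannot be told from scatter.

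For Ehmt2 the sequence before the outer of its 2 starts in the RefSeq promoter table is shown because neither start had a peak in ESCs. It is chr17:34898224-34898468 on the plus strand of GRCm38, from the RefSeq promoter table, with 5 bases next to the start left out because they are annotated as untranslated exon, and capitals mark matches to the words CACGTG (E-box) and CCCCGCCC (KLF, on either strand).
Ehmt2 promoter: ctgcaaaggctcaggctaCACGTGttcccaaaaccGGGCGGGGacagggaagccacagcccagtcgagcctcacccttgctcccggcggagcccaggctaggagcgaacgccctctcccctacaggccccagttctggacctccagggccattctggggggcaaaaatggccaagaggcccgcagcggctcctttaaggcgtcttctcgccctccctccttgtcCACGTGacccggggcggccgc
The 250 bases before this start hold 18 CpG, and those before the inner start (chr17:34898970) hold 36. Over the 965 promoter entries of all genes with the same pattern (peaks in MEFs and on both days, none in ESCs) the median was 15 CpG, against 18 for the 9600 entries with a peak in all 4 lists and 2 for the 17653 with a peak in none.

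Trim28, the co-repressor, had a fold enrichment of 3.1 in MEFs, 3.24 on day 5, 2.95 on day 10 and 3.24 in ESCs over its coding start (chr7:13024152, plus strand). These peaks were below the median start site in height but wide, at 1978, 1804, 1963 and 2053 bp. Of the 9 genes with a peak in each list, Trim28 had the narrowest range. An outer non-coding transcript of Trim28 that starts at chr7:12999114 had no peak over its start in any list.

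Among the demethylases, Kdm4a (chr4:118136957-118180043, minus strand) had the highest start-site peak of the 10 genes in every list, with 5.24 in MEFs, 6.6 on day 5, 5.07 on day 10 and 5.8 in ESCs. By score it ranked 47th of all peaks in MEFs, 39th on day 5, 88th on day 10 and 274th in ESCs. Kdm4b (chr17:56326062-56402870, plus strand) had 4.33, 5.49, 3.81 and 4.46, with scores between the 95.8th and the 99.1st percentile. Kdm3a (chr6:71588972-71632990, minus strand) had 4.35, 4.76, 4.09 and 4.37, with scores between the 90.4th and the 98.3rd percentile. In MEFs the peaks of Kdm4a, Kdm4b and Kdm3a stood near the top of the list by score, at the 99.9th, 98.3rd and 96.7th percentiles. Kdm4c (chr4:74242497-74405860, plus strand) had 4.43, 3.89, 4.11 and 4.38.

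The 2 starts of Kdm4c in the RefSeq promoter table differ in sequence and in accessibility, and both are shown for that reason. The outer start (chr4:74242497) had no peak in any list, and the inner one (chr4:74251879) had a peak in each. The sequences are chr4:74242247-74242496 and chr4:74251629-74251878, plus strand of GRCm38, the 250 bases before each start from the RefSeq promoter table, and capitals mark the E-box CACGTG.
Kdm4c outer start: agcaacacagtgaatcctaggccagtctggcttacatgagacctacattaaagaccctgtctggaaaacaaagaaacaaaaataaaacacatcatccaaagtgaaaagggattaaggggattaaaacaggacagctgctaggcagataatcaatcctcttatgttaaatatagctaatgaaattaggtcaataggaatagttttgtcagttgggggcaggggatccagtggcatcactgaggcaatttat
Kdm4c inner start: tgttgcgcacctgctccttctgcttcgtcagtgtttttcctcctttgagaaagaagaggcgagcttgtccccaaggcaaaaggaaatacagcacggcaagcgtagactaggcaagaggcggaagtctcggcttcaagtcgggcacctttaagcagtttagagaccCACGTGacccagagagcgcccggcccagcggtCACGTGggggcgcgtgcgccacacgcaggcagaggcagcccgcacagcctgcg
The outer sequence holds 0 CpG and 39.6% G or C, and the inner one holds 19 CpG, 60.4% G or C and a pair of E-boxes. The region over the inner start also covers a start of the gene A230083N12Rik. Of all promoter entries with no peak in any list, 14.1% held no CpG, against 0.0521% of those with a peak in all 4 lists.

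The Kdm4a promoter is shown because it lies under the highest peak. It is chr4:118180044-118180293, minus strand of GRCm38, from the same table, with a match to the AP-1 word TGACTCA in capitals.
Kdm4a promoter: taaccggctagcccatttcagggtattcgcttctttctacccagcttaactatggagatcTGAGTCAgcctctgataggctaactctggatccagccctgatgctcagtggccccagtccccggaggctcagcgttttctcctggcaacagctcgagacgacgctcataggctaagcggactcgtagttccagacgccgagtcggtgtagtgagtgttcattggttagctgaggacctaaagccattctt
It holds 12 CpG, the fewest of the members' promoter entries that had a peak in all 4 lists, which ranged from 12 to 38 (10 entries).

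Kdm2b (chr5:122870665-122989823, minus strand) has 8 coding start sites in 4 places, and the lists differed in which they covered. The start inside the gene at chr5:122900355 had a peak in all 4 lists, with a fold enrichment of 4.43 in MEFs, 4.76 on day 5, 4.34 on day 10 and 4.45 in ESCs. The outer group of starts, in the region chr5:122988173-122989950, had peaks of 2.48 in MEFs, 2.56 on day 5 and 2.7 on day 10 and none in ESCs, the pattern of Ehmt2. These outer peaks were weak, at the 28.8th, 0.475th and 23rd percentiles by score, and the region also covers a start of the non-coding gene A930024E05Rik. The region at the middle start, chr5:122952506, had a peak in all 4 lists. The MEF peak (2.81) and the ESC peak (2.92, 10.3rd percentile) just covered that start, ending at chr5:122952526 and chr5:122952513. The day 10 peak (3.24) ended just short of it at chr5:122952468, and the day 5 peak (3.7) ended at chr5:122951965. The lists thus differed there in the edges of the peaks and not in whether the region was open. The start nearest the 3′ end of the gene had no peak in any list. A short form of KDM2B that lacks the Jumonji domain is made from a start inside the gene, but which transcript was used cannot be read from open chromatin.

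The number of peaks per window varied among the genes. In the order MEFs, day 5, day 10, ESCs, Setdb1 had 3, 4, 5 and 8 peaks in its window, Suv39h2 had 4 in each list, and Ehmt1 had 9, 5, 5 and 9. Ehmt2 had 8, 7, 7 and 6 peaks, and Trim28 had 11, 11, 11 and 15. Among these 5 genes the largest differences between ESCs and MEFs were at Setdb1 (5 more peaks) and Trim28 (4 more), whose products act together. With lists of equal length they were 2 and 3. Among the demethylases, Kdm2b had 8, 7, 8 and 9 peaks, Kdm3a 3, 4, 4 and 4, and Kdm4a 5, 5, 6 and 6. Kdm4b had 9, 6, 6 and 8 peaks, and Kdm4c 4, 5, 3 and 8. Kdm4c, which has the longest window (263 kb), had the largest difference between ESCs and MEFs of the demethylase genes. It was 4 more peaks, also with lists of equal length.

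Summed over the 10 windows the MEF list had 64 peaks, the day 5 list 58, the day 10 list 59 and the ESC list 77. Of these, the 5 writer and co-repressor genes held 35, 31, 32 and 42, and the 5 demethylase genes held 29, 27, 27 and 35. The median over the 10 genes was 6.5, 5, 5.5 and 8 peaks, against 5, 3, 3 and 4 for all protein-coding genes. The members' windows were longer, with a median of 144 kb against 117 kb. Pooled over the 10 windows there were 3.82, 3.46, 3.52 and 4.59 peaks per 100 kb. For all protein-coding genes the medians of the single-gene values were 3.45, 2.09, 2.33 and 3.11. A pooled value and a median of single genes are unlike measures, so these numbers do not settle how much of the difference in counts is due to window length. ESCs had more peaks than MEFs in 6 windows, as many in 2 and fewer in 2, a total difference of 13 peaks. With every list cut to its 35226 highest-scoring peaks the members' medians were 5, 5, 5.5 and 5, the medians of all genes were 3 in each list, and the 10 windows held 52, 57, 59 and 59 peaks. The MEF total was then below those of both days instead of above them, the ESC total was level with day 10, and the difference between ESCs and MEFs was 7 peaks. With the higher-scoring 50% of each list it was 5.

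**Figure D2:**
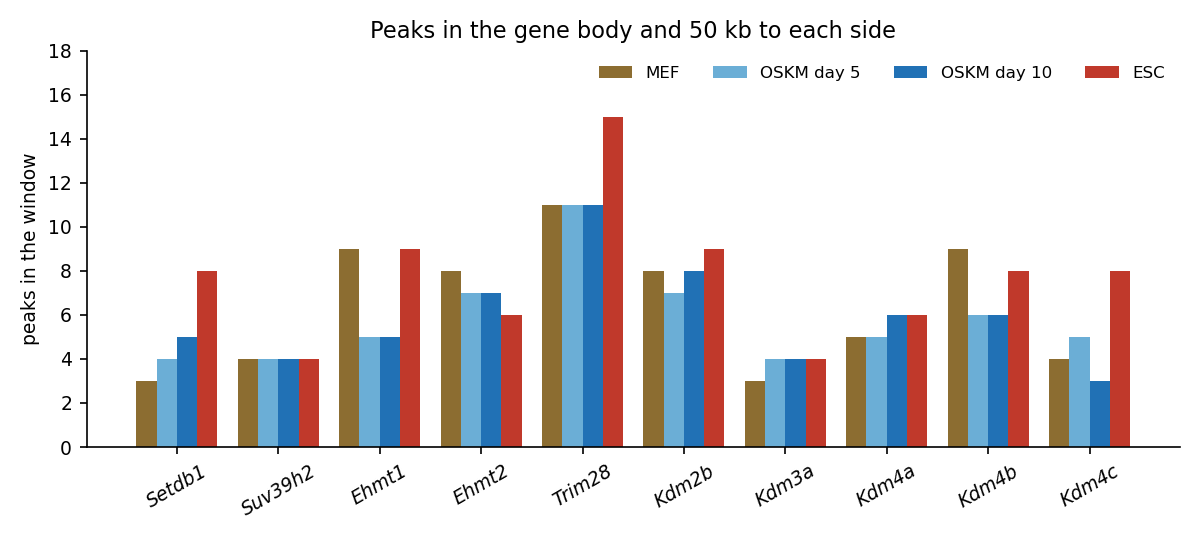
Number of peaks (vertical axis) that overlap each gene body or the 50 kb to each side, with 1 bar per peak list and no error because each group has 1 list. ESC bars exceed MEF bars in 6 of the 10 genes, most in Setdb1 (8 against 3), and Suv39h2 is level at 4.

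Many of these peaks lie over starts of neighbouring genes. Of the 64 peaks in MEFs 43 lay over some start site, which is 67.2% (95% Wilson interval 55 to 77.4, counting error only), against 25.1% of the whole MEF list. The shares were 70.7% on day 5 (58 to 80.8, whole list 31.9%), 74.6% on day 10 (62.2 to 83.9, whole list 35.8%) and 51.9% in ESCs (41 to 62.7, whole list 26.9%). These shares include the members' own starts, which every window holds. In the order MEFs, day 5, day 10 and ESCs, 12, 11, 11 and 10 peaks covered a coding start of the member itself. Outside the gene body, 30, 28, 30 and 27 peaks lay over a start of another gene. The number over a start site hardly moved (43, 41, 44 and 40), while the number over none was 21, 17, 15 and 37. The larger count in ESCs therefore came from peaks away from start sites. Gene windows hold more start sites than the genome at large, and in the windows of all protein-coding genes the shares were 29.9%, 38.9%, 41% and 31.4%.

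Peaks no more than 400 bp apart were joined across the lists into regions, and each region got 1 of 4 classes. MEF-specific regions had a MEF peak but no ESC peak, ESC-specific regions the reverse, common regions had both, and transient regions had neither but were open on at least 1 OSKM day. Common regions made up 43.8% of the 105 (46 regions, 95% Wilson interval 34.7 to 53.4), against 22.9% in the windows of all protein-coding genes and 19.1% in the genome. Of these 46 regions, 29 lay over a start of another gene and 10 over a coding start of the member itself. The part that such start-site regions have in the share of common regions was not tested. MEF-specific regions made up 17.1% (18 regions, 11.1 to 25.5), against 35.1% and 36.4%. ESC-specific regions, 29.5% (31 regions, 21.6 to 38.8), were near the 27.9% and 28.4% of these backgrounds, and with lists of equal length they were 22.6% against 28.4% of all regions. Transient regions were 9.52% (10 regions, 5.26 to 16.6), against 14.1% and 16.1%. The intervals cover counting error only and treat regions of 1 window as independent, which they may not be.

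**Figure D3:**
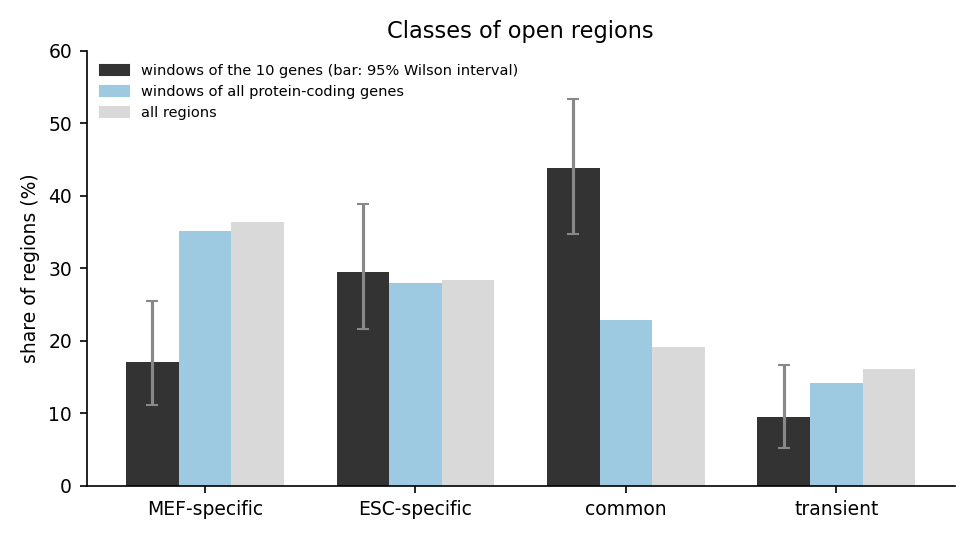
Share of open regions in each class (vertical axis, percent) in the windows of the 10 genes (dark bars with 95% Wilson intervals, n = 105 regions), in the windows of all protein-coding genes (79990 regions) and among all 101701 regions. Common regions take 43.8% in the 10 windows against 19.1% of all regions, and MEF-specific regions take 17.1% against 36.4%.

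By gene, at least 1 MEF-specific region lay in 8 of the 10 windows (75.1% of all protein-coding genes), with none at Setdb1 and Suv39h2. An ESC-specific region lay in 9 windows (75.8% of all), with none at Suv39h2, and a transient region in 6 (47.8% of all), namely Setdb1 and the 5 demethylase genes. These shares are close to those of all genes, given 10 windows that are longer than most. The windows of the demethylase genes held 8 of the 10 transient regions, a split that was not set against the lengths of the windows. With 10 kb to each side transient regions made up 2.04% of the regions in the 10 windows.

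At these genes most regions that were open on 1 OSKM day were open on both. Of 62 regions with a peak on at least 1 day, 55 had one on both (88.7%, 95% Wilson interval 78.5 to 94.4), against 61.7% of all regions and 64.9% in the windows of all protein-coding genes. The part that the many start-site regions in these windows have in that share was not tested. Of the 46 common regions 42 were open in all 4 lists (91.3%; 72.3% of all common regions). Of those 42, 40 lay over a start site (95.2%), against 78.4% of all regions open in all 4 lists. Of the 31 ESC-specific regions 4 had peaks on both days (12.9%, 5.13 to 28.9; 8.14% of all ESC-specific regions). The other 27 had a peak on neither day (87.1%, 71.1 to 94.9; 84.9% of all ESC-specific regions). Of the 18 MEF-specific regions 13 had no peak on either day (72.2%, 49.1 to 87.5; 81.1% of all MEF-specific regions). Most ESC-specific regions of these genes thus had no peak in the infected cells by day 10, a share near that of all ESC-specific regions.

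**Figure D4:**
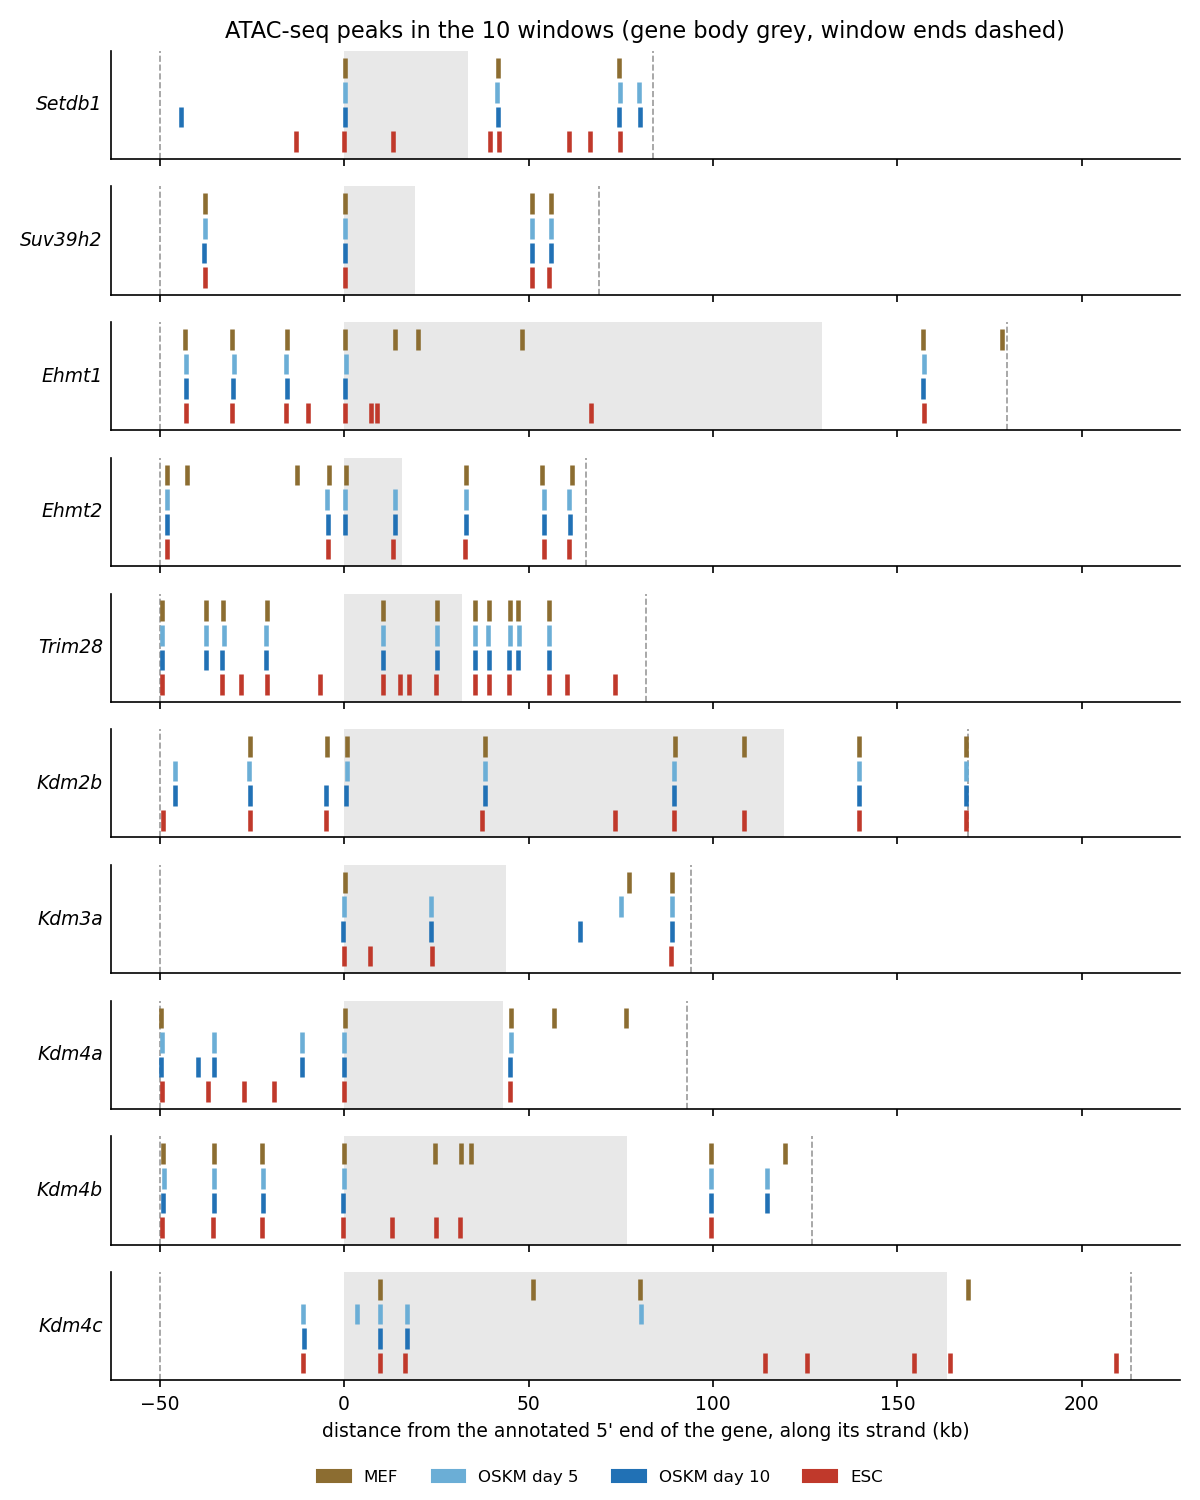
Midpoints of all peaks in the 10 windows (ticks, 1 row of ticks per list, from MEFs at the top to ESCs at the bottom) by distance in kb from the annotated outermost 5′ end of each gene, read along its strand, with the gene body in grey and the window ends dashed. Columns of 4 ticks are the 42 regions open in all lists, 4 of them making up the whole of the Suv39h2 window, and ESC ticks with no tick above them are most frequent at Trim28 (6), Setdb1 (5) and Kdm4c (5).

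The 4 regions with peaks on day 5, on day 10 and in ESCs and none in MEFs lay in the windows of Ehmt2, Kdm3a and Kdm4c. A region of this kind was found in 3 of the 10 windows, against 13.6% of all protein-coding genes, and 3 windows are too few to set against that share. Inside Kdm3a, the gene for the H3K9 dimethyl eraser, the region chr6:71608721-71609868 had peaks with a fold enrichment of 4.56 on day 5, 4.35 on day 10 and 3.24 in ESCs. It lies 23.4 kb inside the gene over an internal start (chr6:71609139) that RefSeq lists and that GENCODE gives to a non-coding transcript. By score the peaks lay at the 79.6th, 86.7th and 50.9th percentiles, so the MEF list lacked a peak where both days had fairly strong ones. The 250 bases before this start, chr6:71609140-71609389 on the minus strand of GRCm38, from the RefSeq promoter table, are shown because the site had no peak in MEFs, and capitals mark the KLF word CCCCACCC.
Kdm3a internal start: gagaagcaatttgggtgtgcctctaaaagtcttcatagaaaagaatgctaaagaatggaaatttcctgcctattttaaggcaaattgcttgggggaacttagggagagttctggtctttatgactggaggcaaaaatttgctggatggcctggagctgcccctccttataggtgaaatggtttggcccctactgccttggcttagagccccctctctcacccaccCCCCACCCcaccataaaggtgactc
The sequence holds 0 CpG, unlike the 20 and 31 before the outer Kdm3a starts, which were open in all 4 lists. Among the 114 promoter entries of all genes with the same pattern, the median was 8 CpG. A KLF word was in 47.4% of them, close to the 46.2% of entries with a peak in all 4 lists. A match is a run of letters and not a bound site.

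Kdm3a also had an ESC-specific region 6.7 kb inside the gene (chr6:71625413-71626567, fold enrichment 3.52), part of it exonic. Its window held no peak upstream of the outer start sites in any list.

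Kdm4c had the most ESC-specific regions of the 10 genes, 7, in the longest of the 10 windows (263 kb, against a median of 144 kb). Of these regions 2 were also open on both days. The first of the pair was intronic, chr4:74258133-74259947, with 3.31 on day 5, 2.59 on day 10 and 3.02 in ESCs, where its peak was 1815 bp wide against 589 and 599 bp. The stretch that all 3 peaks share is 532 bp long, and its middle 200 bases, chr4:74259409-74259608 on the plus strand of GRCm38, are shown as the part open in each. None of the words searched was found in it.
Kdm4c intron: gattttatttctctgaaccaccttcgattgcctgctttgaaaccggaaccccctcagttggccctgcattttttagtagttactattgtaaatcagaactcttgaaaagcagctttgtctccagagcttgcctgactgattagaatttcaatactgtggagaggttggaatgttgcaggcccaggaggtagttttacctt
The second, chr4:74230997-74231721, lay 11.1 kb upstream of the outer start, with 3.06, 3.2 and 3.89. There the day 5 peak (305 bp) and the day 10 peak (181 bp) did not overlap each other, and both scored low (14.7th and 22.7th percentiles). The other 5 ESC-specific regions of Kdm4c had no peak on either day. They lay 93.7 to 189 kb downstream of the nearest coding start, 3 inside introns of the gene, and the highest was chr4:74367660-74368344 with 4.49 in ESCs. By score these 5 peaks lay, in order along the gene, at the 9.79th, 73.5th, 8.45th, 4.98th and 28.2nd percentiles of the ESC list. Inside the gene body 2 MEF-specific regions, chr4:74293474-74293826 (2.78 in MEFs) and chr4:74322616-74323127 (2.48 in MEFs and 3.26 on day 5), had no ESC peak. Kdm4c had 1 region open in all 4 lists, the one over its inner start, the fewest of the 10 genes.

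At Ehmt2 the region chr17:34911068-34912577 in the 3′ part of the gene had 3.93 on day 5, 3.03 on day 10 and 4.03 in ESCs. It thus had peaks in ESCs where the start site of the same gene had none. The middle 200 bases of the 349 bp that all 3 peaks share, chr17:34912052-34912251 on the plus strand of GRCm38, hold no exon bases and are shown for that reversal, with a match to ACGTG (HIF core, here on the other strand) in capitals.
Ehmt2 gene body: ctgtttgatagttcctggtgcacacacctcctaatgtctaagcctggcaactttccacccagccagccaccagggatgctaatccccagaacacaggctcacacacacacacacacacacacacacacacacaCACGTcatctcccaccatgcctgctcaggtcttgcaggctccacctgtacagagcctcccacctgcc
The run of alternating c and a in it is a simple repeat. Upstream of Ehmt2 2 MEF-specific regions, at chr17:34855798-34856215 (2.77) and chr17:34885502-34886129 (3.83), had no peak in any other list.

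Transient regions were most frequent at Kdm4a, with 3 of the 10, all upstream of the gene. The strongest, chr4:118190886-118191998, lay 11.4 kb upstream of the start and had 4.85 on day 5 and 4.67 on day 10, at the 82.5th and 81.6th percentiles by score. Its middle 200 bases, chr4:118191343-118191542 on the minus strand of GRCm38, are shown as the strongest site open on the OSKM days alone, with a match to CCACACCC (KLF, here on the other strand) in capitals.
Kdm4a upstream: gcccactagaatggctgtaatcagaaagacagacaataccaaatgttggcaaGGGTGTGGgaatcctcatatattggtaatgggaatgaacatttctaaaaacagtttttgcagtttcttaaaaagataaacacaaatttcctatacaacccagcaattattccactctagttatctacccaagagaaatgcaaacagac
The other 2, chr4:118214788-118215780 (2.67 and 2.91) and chr4:118219376-118219770 (2.51 on day 10), were weaker and farther out. Among the 3 transient regions lay 3 ESC-specific regions of Kdm4a, with fold enrichments of 3.2 to 3.57. Of these, 2 lay between the first and the second transient region and 1 between the second and the third. Farther upstream, chr4:118229147-118229896 had a peak in every list, with 2.6 in MEFs, 4.41 on day 5, 3.32 on day 10 and 4.76 in ESCs. The upstream side of this gene thus held regions found only on the OSKM days or only in ESCs, beside this shared one. Among the demethylase genes, 2 further windows held a transient region with peaks on both days, those of Kdm2b (chr5:123035343-123035999, 3.75 and 4.06) and of Kdm4b (chr17:56439999-56441433, 3.17 and 3.03). At Kdm3a the transient regions had a peak on 1 day each (4 on day 5, 3.42 on day 10), and the 1 at Kdm4c was the single transient region inside a gene body (chr4:74245865-74246152, 3.19 on day 5).

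Setdb1 had 5 ESC-specific regions, no MEF-specific region and 2 transient ones. Of the ESC-specific regions 1 lay in an intron (chr3:95343469-95344372, 4.08 in ESCs), and the nearest to the start on the other side (chr3:95370032-95370436) had 4.1. Trim28 had 6 ESC-specific regions with fold enrichments of 2.11 to 3.58, 2 of them in the body of its outer non-coding transcript, upstream of the coding start (chr7:13014030-13014714 and chr7:13016385-13016966). Over a start of the neighbouring gene 1810019N24Rik, in the Trim28 window, a peak was present in MEFs (3.32), on day 5 (4.03) and on day 10 (3.13) and absent in ESCs. A further region over a start of that gene (chr7:12949221-12950281) had a peak in every list, with 4.87 in ESCs. Inside Ehmt1 different regions were open in MEFs and in ESCs. There 3 had peaks in MEFs alone, the widest chr2:24905595-24906235 (2.88), and 3 in ESCs alone, the widest chr2:24912083-24912756 (3.86), and none of the 6 had a peak on either day. Of the ESC-only regions 1, chr2:24852370-24852857 (3.3), lay over an internal start of the gene. Kdm4b had 2 intronic regions with peaks in MEFs and in ESCs and none on either day, chr17:56350610-56351164 (3.23 and 2.91) and chr17:56357305-56357974 (2.9 and 3.73). Kdm2b had 1 more of that kind (chr5:122881324-122881647, 2.47 and 2.91), at the 2.03rd and 9.32nd percentiles. Suv39h2 stood apart from these genes: its 4 regions were open in all lists, and each lay over a start site, its own or that of Meig1, Dclre1c or Hspa14.

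Short words for factor families were counted in the 250 bases before each start and in 200 bp at the middle of the widest peak of each region, on both strands. They were CCACACCC, CCACGCCC, CCCCACCC and CCCCGCCC for KLF factors, ATGCAAAT for the octamer of OCT4, CCATTGT and CCTTTGT for SOX factors, TGACTCA for AP-1, TCAAGGTCA for ESRRB, CACGTG for the E-box and ACGTG for the HIF core, which every E-box also contains. The promoter table held 16 entries for 9 of the genes, some of which overlap, and none for Kdm4b. A KLF word was found in 11 of the 16, and in 8 of the 10 entries with a peak in all 4 lists, against 27.4% of all promoter entries and 46.2% of those with a peak in all 4 lists. The octamer was in none of the 16 (1.6% of all). Of the 10 transient regions 4 held a KLF word, at Kdm2b, Kdm4c and, for 2 of them, Kdm4a, against 10.9% of all transient regions, and none held the octamer (4.11%) or a SOX word (15.5%). Of the 18 MEF-specific regions 1 held the AP-1 word, against 23% of all MEF-specific regions, and of the 31 ESC-specific regions none held the octamer, against 3.18%. With so few regions these counts describe the members alone, and nothing follows from them about the factors.

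As a wider view, 18 further genes of the pathway were read as a list: Suv39h1, Setdb2, Atf7ip, Wiz, Mphosph8, Fam208a, Pphln1, Cbx1, Cbx3, Cbx5, Kdm1a, Kdm2a, Kdm3b, Jmjd1c, Kdm4d, Kdm7a, Phf2 and Phf8. A start-site peak was present for 18 in MEFs (58.6% of all protein-coding genes), 17 on day 5 (50.6%), 17 on day 10 (54.7%) and 14 in ESCs (53.8%), and for 14 in all 4 lists (45.2%). The other 4 had no start-site peak in ESCs, and 3 of them had the pattern of Ehmt2, which 3.49% of all protein-coding genes had. They were Wiz, whose product binds the EHMT1 and EHMT2 dimer (highest peak 3.18 in MEFs, 2.81 on day 5 and 3.88 on day 10), the H3K4 and H3K9 demethylase gene Kdm1a (2.67, 3.62 and 3.31), the Kdm3a relative Kdm3b (2.81, 3.68 and 2.8), and Phf2, with a peak in MEFs alone (2.46). In their windows the lists had 116, 77, 86 and 105 peaks, so unlike the 10 windows they had fewer peaks in ESCs than in MEFs. The whole ESC list was also shorter than the MEF list (48486 against 56514 peaks), and no count with lists of equal length is given for these 18 genes. Of their 181 regions 30.4% were MEF-specific, 24.9% ESC-specific, 32.6% common and 12.2% transient, against 35.1%, 27.9%, 22.9% and 14.1% in the windows of all protein-coding genes.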

How the data were processed

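Peak lists of 8 ATAC-seq libraries (2 per group, 4 groups taken from the sample labels) were used, 1 list per group. Per the labels and the methods section, the authors aligned reads to mm10 with bowtie2 and removed reads of low mapping quality and mitochondrial reads. The submitters' processing notes name bowtie2 2.2.0, and the labels and the methods differ in the mapping quality threshold. The peak caller and any shift of read ends were not given in the sources used here. Each deposited peak has a score, a fold enrichment, which is a linear ratio, and a −log10 q-value (also a −log10 p-value, not used here). The smallest −log10 q-value in each deposited list was just above 1. Peak names are those of replicate 1, so the intervals are probably overlaps of replicate 1 peaks with those of replicate 2, which no source states. Scores and folds would then belong to the whole replicate 1 peak. The lists give no read counts, so the depth per library is unknown. Columns of other series numbered 0.

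Windows were the gene body and 50 kb to each side, and a peak counted when it overlapped by at least 1 bp. Genes, start sites and exons came from GENCODE mouse release 21. Start-site peaks of a gene were counted over the starts of its coding transcripts. Counts over any start site, or over starts of other genes, used the starts of all annotated transcripts, non-coding ones included. Peaks within 400 bp, the distance used in the study's methods, were joined into regions. Percentiles rank a peak by score in its list. Wilson intervals are at 95%. Counting was tested on simulated intervals. Python 3.11.15, numpy 2.4.6, scipy 1.17.1, pysam 0.24.0 and matplotlib 3.10.9 were used. Promoter sequences came from the RefSeq table (GRCm38.p6) and other sequences from the GRCm38 genome.

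The members and lists were chosen with earlier results of these data known. All 10 genes were named. Regions were named where they lay over a start site or in a gene body and differed between lists, and other pathway genes and neighbours where their start-site peaks differed. Printed regions were to be 200 bp around the middle of the widest peak. For regions with peaks on both days and in ESCs the shared stretch was printed instead, and this choice, the Kdm4a sequences, the Kdm4c promoters and the internal Kdm3a promoter were made after the values were seen, as was the naming of regions outside gene bodies. The outer Kdm2b promoters overlap untranslated exon and were not printed. Alternatives were other window sizes, filters on score, lists of equal length, other merging distances, other start-site definitions, peak midpoints and leaving out peaks over starts of other genes.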

Additional observations from a re-analysis of the deposited data

How the results depend on the processing

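Of 75 recomputed summary values, 55 stayed within a factor of 1.5 (counts) or within the Wilson interval (shares) and 20 moved. The total was higher in ESCs than in MEFs under every alternative run. Of 280 recomputed values of single genes 146 stayed and 134 moved. In the order MEFs, day 5, day 10 and ESCs, the 10 windows held 29, 23, 22 and 39 peaks with 10 kb to each side, 22, 18, 16 and 29 in the gene bodies alone, and 30, 26, 25 and 48 without peaks over start sites of other genes. With 100 kb to each side there were 105 in MEFs and 118 in ESCs, and with the higher-scoring 50% of each list 38 at day 5 and 51 in ESCs. The difference of 13 peaks between ESCs and MEFs was 7 in gene bodies alone, 5 with the higher-scoring 50% and 7 with lists of equal length. The totals with lists of equal length were 52, 57, 59 and 59, which turned the order of MEFs and both OSKM days, and the ESC-specific share was 22.6% against 28.4% of all regions. With lists of equal length ESCs had more peaks than MEFs in 5 windows, as many in 1 and fewer in 4, and the difference at Kdm2b turned from 1 more to 1 fewer. With 100 kb to each side it was more in 7 and fewer in 3, and the differences at Kdm2b (3 fewer), Kdm4a (2 fewer) and Kdm4b (1 more) turned. The share of transient regions was 2.04% with 10 kb to each side. When the outermost annotated 5′ end alone was used, 8, 7, 8 and 6 of the 10 genes had a start-site peak. No paired analysis was possible because each group has 1 peak list, although its libraries carry the replicate numbers 1 and 2, and leaving out each replicate was not run for the same reason. Unknown depth limits every comparison between lists: a missing peak may be one that was not detectable in a shallower library.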
